A study of Mus musculus with 12 samples.

Results

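This is an account of 9 genes for epithelial alarmins and members of the interleukin-1 (IL-1) family, Il1a, Il1b, Il18, Il33, Il1rn, Tslp, Hmgb1, S100a8 and S100a9. They were taken by name from a gene table with 55401 entries, and each name matched 1 entry. In mouse airway organoids 4.5 h after laser ablation of 10 cells, none of the 7 genes with enough counts to be tested differed from the control past the threshold, by limma with Benjamini-Hochberg adjustment. The lowest adjusted p was that of Il18, which was lower after ablation in 5 of 6 pairs of dishes. Levels of the same genes also varied between the pairs of dishes, with Il1a spanning 7.53-fold over the 12 libraries and Il33 1.43-fold.

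The organoids were grown from epithelial cells isolated from the lungs of adult C57BL/6J mice, and are described as like proximal airway epithelium. Those of all 12 libraries, controls included, had been transduced with a lentiviral H2A-mCherry reporter driven by the p63 promoter. A dish of 45 organoids gave 1 library. In 6 dishes a femtosecond laser ablated 10 neighbouring cells in each organoid, 6 untreated dishes served as control, and both were kept in unsupplemented FluoroBrite DMEM from 1 h before the treatment until harvest at 4.5 h. Dishes with the same number (1, 3, 4, 5, 6 and 7) shared passage, culture day and date and are called a pair here. Pairs 1 and 3 were of passage P2+14 (day 14 and day 20), pairs 4 and 5 of P2+15 (day 14 and day 15), and pairs 6 and 7 of P2+16 (day 18 and day 19). Library numbers fell into 2 runs of 6, called library sets, with pairs 1, 3 and 5 in set 1 and pairs 4, 6 and 7 in set 2. The titles of controls 4, 6 and 7 also hold the word ablation, while their treatment label says control, so for the 7 tested genes the log2 fold change of set 1, which is without these pairs, is given as well. The labels do not say from how many mice the cultures came, so the p-values measure the spread between dishes, and a change in the few cells around a damage site is averaged over whole dishes.

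Alarmins are proteins that healthy cells hold ready and that leave the cell when it is damaged or stressed. IL-1 alpha, IL-33 and HMGB1 sit in the nucleus and act on neighbouring cells once they are set free, IL-18 and IL-1 beta are made as precursors that caspase-1 cuts, and TSLP is secreted by airway epithelium and acts on dendritic and innate lymphoid cells. The IL-1 receptor antagonist encoded by Il1rn binds the receptor of IL-1 alpha and IL-1 beta without signalling. S100A8 and S100A9 pair to form calprotectin, which is abundant in neutrophils and is also made by stressed epithelium. RNA levels say nothing of how much of these proteins was released.

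Normalized counts were read counts divided by 1 size factor per library, and they summed to between 27297950 and 28504390 in each of the 12 libraries. Of 12 airway epithelial markers, 10 reached the minimum set for testing (10 or more normalized counts in 6 or more libraries), led by the basal keratin Krt5 with a mean of 276858. The club cell gene Scgb1a1 (0 to 9.65) and the ciliated cell regulator Foxj1 (2.92 to 18.1) were low. In the model with the pair described below, 2 of the 10 were called, beside 1.09% of all genes tested. They were Trp63, which encodes p63, with a log2 fold change of 0.39 (limma adjusted p 0.00825) and Sox2 with -0.17 (0.0488). With the library set in the model neither was called (limma adjusted p 0.187 and 0.642). Their part in the values of the 9 genes was not tested. Of 15 leukocyte markers, 6 passed that minimum and 5 were at 0 in all libraries, including Csf3r of neutrophils and Adgre1 of macrophages. Those that passed were Cd68 of macrophages (mean 122), Itgam of myeloid cells (120), Lyz2 (27.2), Itgb2 (22.7), Ptprc and Ly6g of neutrophils (10.4). The list summed to 246 to 398 in ablated dishes and to 264 to 407 in controls. All 6 that passed had a log2 fold change below 0 (median -0.11), and none was called. Ptprc, the pan-leukocyte gene CD45, led with -0.52 at a mean of 12.8 counts. Under the minimum, Csf1r was higher after ablation in 6 of 6 pairs, at 2.00 to 10.9 counts against 0 to 3.95 in the control. Fcer1g was lower in 5 of 6 pairs, and neither was tested. Of 10 stromal and endothelial markers 1 passed, with sums of 22.7 to 47.8 and 26.2 to 54.0. Of 15 hillock and squamous markers 13 passed, 7 higher and 6 lower with none called.

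The 250 bases before the annotated start of transcription are shown for 5 of the genes, chosen as the highest in level (Il33, both listed starts), the widest ranging over libraries (Il1a), the gene most alike to it among the 9 (S100a9), the gene with the lowest adjusted p after ablation (Il18) and the IL-1 gene at 0 (Il1b). They are from RefSeq on GRCm38.p6, read 5′ to 3′ on the strand of the gene, and capitals mark matches to TGANTCA (an AP-1 site), the TATA box letters TATAAA or TTGCNNAA (a C/EBP site) on either strand.
Il1a, chr2:129309973-129310222, minus strand: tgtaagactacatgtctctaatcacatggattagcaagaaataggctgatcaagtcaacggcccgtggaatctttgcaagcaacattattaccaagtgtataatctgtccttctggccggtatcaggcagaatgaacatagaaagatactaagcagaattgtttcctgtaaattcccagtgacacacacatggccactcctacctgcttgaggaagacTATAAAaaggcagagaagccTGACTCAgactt
Il1b, chr2:129371140-129371389, minus strand: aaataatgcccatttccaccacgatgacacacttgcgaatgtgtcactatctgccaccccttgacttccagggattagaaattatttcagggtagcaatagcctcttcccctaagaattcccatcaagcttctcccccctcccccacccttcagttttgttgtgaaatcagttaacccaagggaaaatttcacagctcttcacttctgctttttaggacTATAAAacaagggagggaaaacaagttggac
Il33 first start, chr19:29924863-29925112, plus strand: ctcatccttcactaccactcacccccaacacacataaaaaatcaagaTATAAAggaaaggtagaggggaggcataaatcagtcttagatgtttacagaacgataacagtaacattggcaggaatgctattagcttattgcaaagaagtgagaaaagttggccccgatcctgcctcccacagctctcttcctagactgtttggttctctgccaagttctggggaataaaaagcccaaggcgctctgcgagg
Il33 second start, chr19:29945540-29945789, plus strand: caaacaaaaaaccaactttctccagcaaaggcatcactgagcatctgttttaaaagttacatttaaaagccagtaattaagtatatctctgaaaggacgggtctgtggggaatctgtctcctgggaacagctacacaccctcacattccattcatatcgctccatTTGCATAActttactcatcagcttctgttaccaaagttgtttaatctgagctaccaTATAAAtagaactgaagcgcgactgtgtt
Il18, chr9:50554450-50554699, plus strand: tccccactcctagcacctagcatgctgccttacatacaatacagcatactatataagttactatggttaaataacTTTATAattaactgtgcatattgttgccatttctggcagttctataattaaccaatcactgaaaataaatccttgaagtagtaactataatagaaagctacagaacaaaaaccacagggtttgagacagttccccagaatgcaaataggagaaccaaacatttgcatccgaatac
S100a9, chr3:90695722-90695971, minus strand: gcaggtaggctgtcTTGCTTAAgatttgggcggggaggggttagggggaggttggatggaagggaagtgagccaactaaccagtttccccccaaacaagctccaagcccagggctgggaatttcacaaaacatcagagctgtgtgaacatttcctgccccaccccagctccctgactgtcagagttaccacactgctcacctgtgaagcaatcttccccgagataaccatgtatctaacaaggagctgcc
Il1a held a TATA box whose first base lies at -32 from the start and the letters of an AP-1 site at -12, and Il1b, its neighbour on chromosome 2, held a TATA box at -31. The second Il33 start had a TATA box at -29 and a C/EBP match at -85, and gene counts do not tell the starts apart. S100a9 held a C/EBP match at -236, and a TATA match of S100a9 began at 0, just past the bases shown. The only matches of Il18 and of the first Il33 start were to TATAAA far upstream, at -175 and -203. That of Il18 was on the opposite strand and reads TTTATA above. In the same 250 bases of 32851 mouse promoters, 6.75% held an AP-1 match, 12.4% a TATA match and 9.56% a C/EBP match. A match is a run of letters and does not show that a factor binds there.

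Per kilobase of exon, used to compare genes with each other, the order of mean levels was Il33, Hmgb1, Il18, Il1rn, Il1a, Tslp, S100a9, S100a8 and Il1b. The length sums all annotated exons of a gene, and levels and their order depend on it. Before division by length, Il1rn (mean 768) lay above Il18 (603). Il33 averaged 7052 normalized counts per kilobase (range over the 12 libraries 5953 to 8542), which was 4.42-fold the level of Hmgb1 at 1596 (1371 to 1807). Il18 followed at 585 (429 to 735), which was 4.21-fold the level of Il1rn at 139 (127 to 159). In each of these steps the lowest library of the higher gene lay above the highest library of the lower gene. Il1a averaged 122 (30.6 to 231), Tslp 67.2 (40.8 to 95.1) and S100a9 35.3 (14.9 to 89.1), and these ranges overlapped each with the next, as did those of Il1rn and Il1a. S100a9 lay 10.3-fold above its partner S100a8, at 3.44 (0 to 10.1), without overlap of the ranges. Il1b was at 0 in all 12 libraries, and in the 9 libraries whose read number could be recovered a count of 0 allows up to 3 reads, or 0.101 to 0.127 when scaled to 1000000 reads, counting error only.

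**Figure D1:**
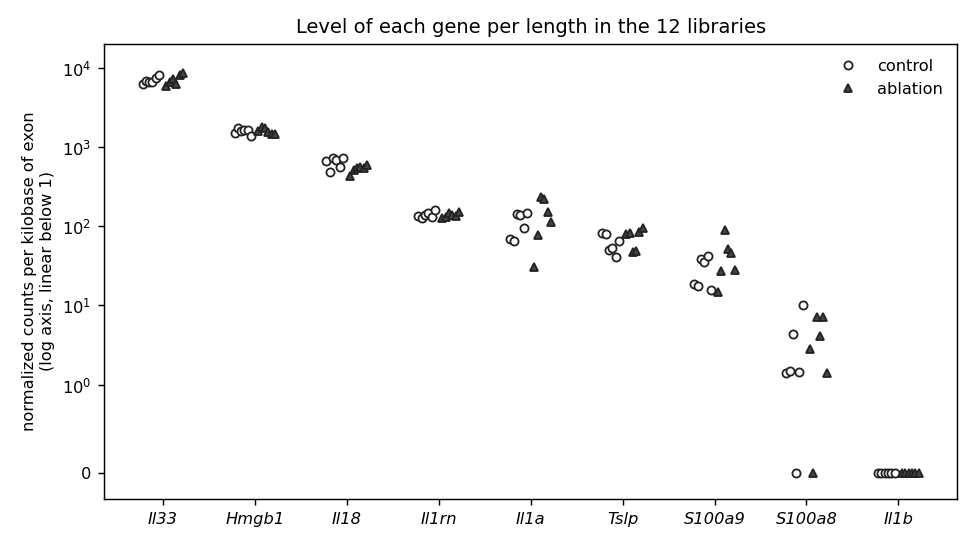
Level of each of the 9 genes in normalized counts per kilobase of exon (log axis, linear below 1), with 6 control dishes as circles and 6 ablated dishes as triangles. Il33, at 5953 to 8542, stands above all others, Il1a spreads from 30.6 to 231, and Il1b is at 0 in every library.

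Il33 (chr19:29925114-29960718), whose protein is a nuclear cytokine of barrier epithelium, had 17179, 18943, 20867, 17886, 23404 and 24652 normalized counts in ablated dishes 1, 3, 4, 5, 6 and 7, and 18119, 19834, 19206, 19128, 21553 and 23458 in the controls of the same numbers. Pairs 6 and 7 were high under both conditions and the groups overlapped across nearly their whole range. The means were 20488 ± 3036 after ablation and 20216 ± 1952 in the control (SD, n = 6), and the log2 fold change was 0.01 (SE 0.064), with a 95% confidence interval from -0.13 to 0.15 and an adjusted p of 0.981 by limma with the library set in the model. In RNA of whole organoids, fewer cells of a type and less RNA per cell cannot be told apart, here and for the genes that follow. The IL-33 receptor gene Il1rl1 (ST2), which is best known on mast cells and innate lymphoid cells, was at 0 to 7.79 counts after ablation and 0 to 5.84 in the control and was not tested.

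Il1a (chr2:129299610-129309972), whose protein acts as soon as a cell breaks open, had 60.4, 153, 455, 429, 294 and 221 normalized counts in ablated dishes 1, 3, 4, 5, 6 and 7, and 134, 127, 279, 270, 189 and 289 in their controls. It was higher after ablation in 4 pairs and lower in pairs 1 and 7, and the lowest and the highest of the 12 values were both in ablated dishes. The change ran from -54.9% in pair 1 to 63.3% in pair 4. The means were 269 ± 155 and 215 ± 74.2 (SD, n = 6), and the log2 fold change was 0.13 (SE 0.385, 95% confidence interval -0.71 to 0.96, limma adjusted p 0.959). It was -0.07 within set 1 and 0.32 within set 2, and with 1 pair left out it ran from 0.01 (without pair 4) to 0.38 (without pair 1). Exons of Il1a share 222 bases with a gene on the opposite strand, Gm14023, at a mean of 33.1 counts, and the strand setting of the counting was not given in the sources used here.

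Il1rn (chr2:24336853-24351494), the antagonist of that signal, was the steadiest of the 7, with 1.25-fold between its highest and lowest library. Ablated dishes had 707, 728, 802, 768, 745 and 829 normalized counts in the same order, and controls 750, 704, 770, 812, 722 and 882. It was higher in 3 pairs and lower in 3, by at most -5.99% (pair 7) and 4.11% (pair 4), with a log2 fold change of -0.02 (SE 0.062, 95% confidence interval -0.15 to 0.12, limma adjusted p 0.964), and -0.04 within set 1. With Il1rn nearly level, the ratio of Il1rn to Il1a per kilobase followed Il1a. The ratio was 4.17 after ablation and 1.99 in the control of pair 1, but 0.628 and 0.985 in pair 4, 0.638 and 1.07 in pair 5, and 0.904 and 1.36 in pair 6. Pair 3 gave 1.70 and 1.98, and pair 7 gave 1.34 and 1.09. Per length, Il1a thus exceeded Il1rn in 4 of the 12 libraries, ablated dishes 4, 5 and 6 and control 4. This rests on the length used, all annotated exons summed, with 5535 bases for Il1rn and 1974 for Il1a. In counts not divided by length, Il1rn was higher in every library, with a lowest value of 704 against a highest Il1a of 455.

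Il18 (chr9:50554827-50581840), a cytokine stored as a precursor in epithelium, had 443, 528, 560, 572, 563 and 611 normalized counts in ablated dishes 1, 3, 4, 5, 6 and 7, and 690, 492, 742, 698, 576 and 758 in their controls. Every pair except pair 3 was lower after ablation, and 5 ablated dishes lay in a narrow band from 528 to 611 that also held 1 control. The means were 546 ± 57.3 and 659 ± 104 (SD, n = 6), and the fitted difference was -16.6%, or -0.26 on the log2 scale (SE 0.102, 95% confidence interval -0.48 to -0.04). The limma adjusted p was 0.604 with the library set in the model and 0.138 with the pair in its place. The same direction in at least 5 of 6 pairs was seen in 36.3% of all 13792 genes tested. Within set 1 the log2 fold change was -0.28 and within set 2 it was -0.25.

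Tslp (chr18:32815383-32819797), the secreted alarmin of airway epithelium, had 106, 108, 63.3, 63.8, 113 and 127 normalized counts in the ablated dishes and 110, 106, 66.4, 69.9, 54.3 and 86.5 in the controls, in the order of pairs 1, 3, 4, 5, 6 and 7. In pairs 1, 3, 4 and 5 ablation differed from control by -8.67% to 1.39%, and in pairs 6 and 7 the ablated dish was higher by 107% and 46.4%. The means were 96.7 ± 26.7 and 82.3 ± 22.6 (SD, n = 6), and the log2 fold change was 0.23 (SE 0.219, 95% confidence interval -0.25 to 0.70, limma adjusted p 0.825). By library set the log2 fold change was -0.05 in set 1 and 0.50 in set 2, the latter with an adjusted p of 0.343 by limma with the pair in the model. Of the 2 chains of its receptor, Crlf2 had a mean of 319 normalized counts and Il7r was at 0 in all libraries.

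Hmgb1 (chr5:149046702-149184489), a chromatin protein that signals damage once outside the cell, had 7991, 9075, 8806, 7820, 7423 and 7366 normalized counts after ablation and 7521, 8772, 8036, 8243, 8232 and 6889 in the control. The pair values ran from -9.83% (pair 6) to 9.58% (pair 4), and the groups overlapped. The log2 fold change was 0.02 (SE 0.066, 95% confidence interval -0.12 to 0.17, limma adjusted p 0.954), and 0.02 within set 1. Its exons share 42 bases with the opposite-strand gene Uspl1, which had a mean of 1225 counts.

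S100a9 (chr3:90692632-90695721), a subunit of calprotectin, had 7.80, 14.0, 46.5, 27.2, 23.7 and 14.6 normalized counts in ablated dishes 1, 3, 4, 5, 6 and 7 and 9.65, 9.21, 20.1, 18.2, 21.7 and 8.18 in their controls. It was higher after ablation in every pair except pair 1, by 9.05% in pair 6 and up to 131% in pair 4, and the groups overlapped. The means were 22.3 ± 13.8 and 14.5 ± 6.15 (SD, n = 6), and the log2 fold change was 0.48 (SE 0.360, 95% confidence interval -0.29 to 1.26). The limma adjusted p was 0.771 with the library set in the model and 0.280 with the pair. Within set 1 the log2 fold change was 0.28 and within set 2 it was 0.68. These are low counts, only 8 of 12 libraries reached 10, and a value near 10 rests on about 10 reads. S100a8 (chr3:90668978-90670035) was lower still, with 1.95, 0, 4.95, 2.82, 4.94 and 0.97 normalized counts after ablation and 0.97, 1.02, 3.02, 0, 0.99 and 7.01 in the control. On log2(count + 1) its means differed by 0.27, with a two-sided exact permutation p of 0.606 over the 12 libraries and a sign-flip p of 0.656 over the 6 pairs, for which 0.0312 is the smallest value possible. The leukocyte list given above reached sums of at most 398 counts (ablation) and 407 (control), and its part in the S100a9 values was not tested.

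**Figure D2:**
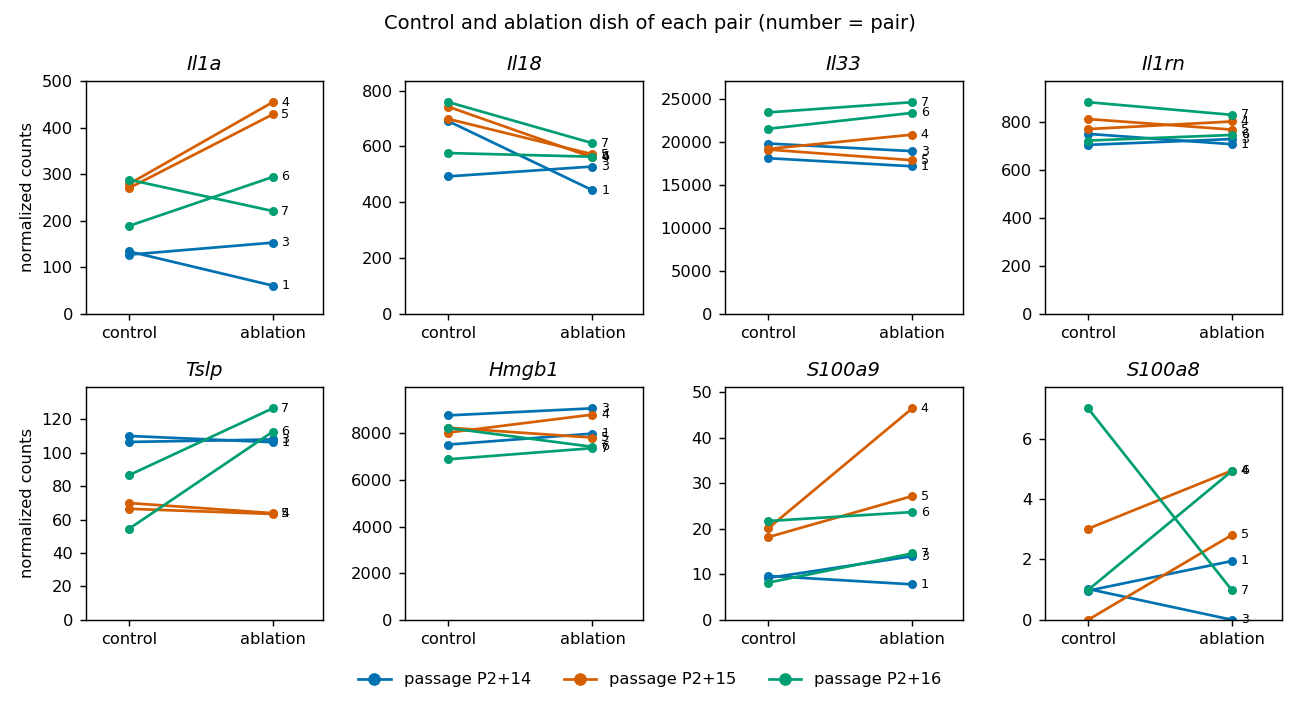
Normalized counts of 8 genes in the control and the ablated dish of each pair, joined by a line, numbered by pair and coloured by passage; each axis starts at 0. Lines of Il1a and Tslp run in both directions, 5 of 6 lines of Il18 run down and 5 of 6 lines of S100a9 run up, and the 2 groups overlap in every panel.

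Across all genes, the model with the library set called 0 of 13792, or 0%, at an adjusted p under 0.05 by limma, with 7.85% at an unadjusted p under 0.05. The model with the pair called 1.09% (93 higher and 57 lower), with 17.6% at an unadjusted p under 0.05. Under neither were any of the 7 genes called. Il18 and S100a9 were 2 of 7 at an unadjusted p under 0.05 with the pair in the model (0.00765 and 0.0486), and Il18 was the 1 of 7 with the library set (0.0231). None of the 7 moved the same way in all 6 pairs, which 9.8% of genes did, and none had groups that did not overlap, as 0.457% of genes had. The median log2 fold change of the 7 was 0.02, beside -0.0036 over all genes tested. On the 9 libraries with recovered reads, edgeR's quasi-likelihood test called 0 of 14234 genes (834 at an unadjusted p under 0.05) and DESeq2 called 9, none of them among these genes, though it gave S100a9 no adjusted p.

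**Figure D3:**
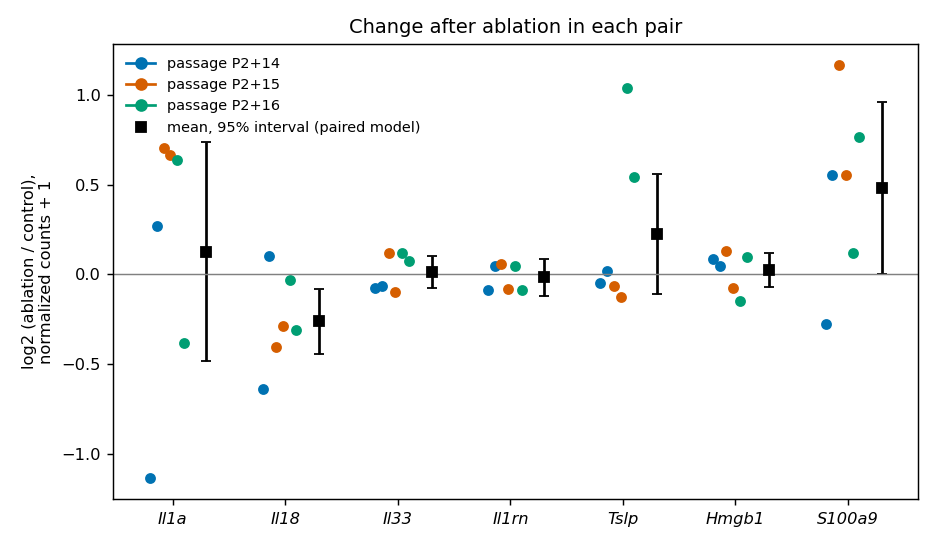
Log2 ratio of ablation to control for the 7 tested genes in each pair (points, coloured by passage), with the mean and its 95% interval from the model with the pair (black squares). The interval of Il18 runs from -0.44 to -0.08 and that of S100a9 from 0.00 to 0.96, before adjustment over all genes, and those of the other 5 genes include 0.

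The response itself was compared between the library sets. No gene of the 13792, or 0%, differed between the sets in its response at an adjusted p under 0.05 by limma, with 231 at an unadjusted p under 0.05. Il33 had a log2 fold change of -0.08 in set 1, where it was lower after ablation in pairs 1, 3 and 5, and 0.10 in set 2, where it was higher in pairs 4, 6 and 7. The difference of 0.18 (SE 0.122) had an adjusted p of 0.999 by limma, and of 0.587 with the pair in the model. In percent, the pair values lay between -6.49 and 8.65.

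The pairs of dishes, which differ in passage and culture day, were compared as well. A moderated F-test in limma called 29.6% of all genes as different between the 6 pairs, and 3 of the 7 genes here. These were Il33 (adjusted p 0.00446), S100a9 (0.0191) and Hmgb1 (0.0487), followed by Il1a (0.0567), Tslp (0.0931), Il1rn (0.127) and Il18 (0.174), which did not pass. Of the sum of squares of log2 values, the pair took 91.6% in Il33, 86.5% in Il1rn, 80.6% in Il1a, 79.1% in Hmgb1, 78.1% in S100a9 and 62.9% in Tslp, beside a median of 67.6% over all genes. Il18 was the lowest, with 39.3% between pairs and 32.9% between conditions, where the median gene had 5.47% between conditions.

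By passage, 4 libraries each, Il1a was at 60.4 to 153 normalized counts in P2+14, 270 to 455 in P2+15 and 189 to 294 in P2+16, with means of 119, 358 and 248. Libraries of P2+14 thus lay below all those of both later passages. Tslp went the other way between the first passages, with 106 to 110 in P2+14 and 63.3 to 69.9 in P2+15, and spread from 54.3 to 127 in P2+16. Il33 was at 17179 to 19834, 17886 to 20867 and 21553 to 24652, so that the 4 libraries of P2+16 stood above the other 8. S100a9 was at 7.80 to 14.0 in P2+14 and 18.2 to 46.5 in P2+15, without overlap, and at 8.18 to 23.7 in P2+16. Il1rn also did not overlap between P2+14 (704 to 750) and P2+15 (768 to 812), though these ranges lie close together.

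The number of genes here whose libraries did not overlap was 4 of 7 between P2+14 and P2+15, where it was 9.85% of all genes tested, 2 of 7 between P2+14 and P2+16 (14.7%), and 1 of 7 between P2+15 and P2+16 (7.7%). Each passage holds 2 pairs only. Both pairs of P2+14 are in library set 1 and both of P2+16 in set 2, so passage and library set cannot be told apart between them. Tslp and Il1a, taken from the genes that did not overlap between P2+14 and P2+15, are given by pair as a description. Because of that choice, pairs 4 and 5 had to lie apart from pairs 1 and 3, so their separation below is no further test. Within library set 1, pair 5 had 63.8 to 69.9 counts of Tslp and 270 to 429 of Il1a. Pairs 1 and 3 of that set had 106 to 110 and 60.4 to 153. At day 14, Tslp was at 63.3 to 66.4 in pair 4 and 106 to 110 in pair 1. Pairs 4 and 5, of the same passage but of different library sets, had 63.3 to 66.4 and 63.8 to 69.9 of Tslp. Their Il1a was at 279 to 455 and 270 to 429. Each of these comparisons rests on 1 or 2 pairs. The passages also differ in date, so passage and date cannot be told apart, and the cause was not tested.

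**Figure D4:**
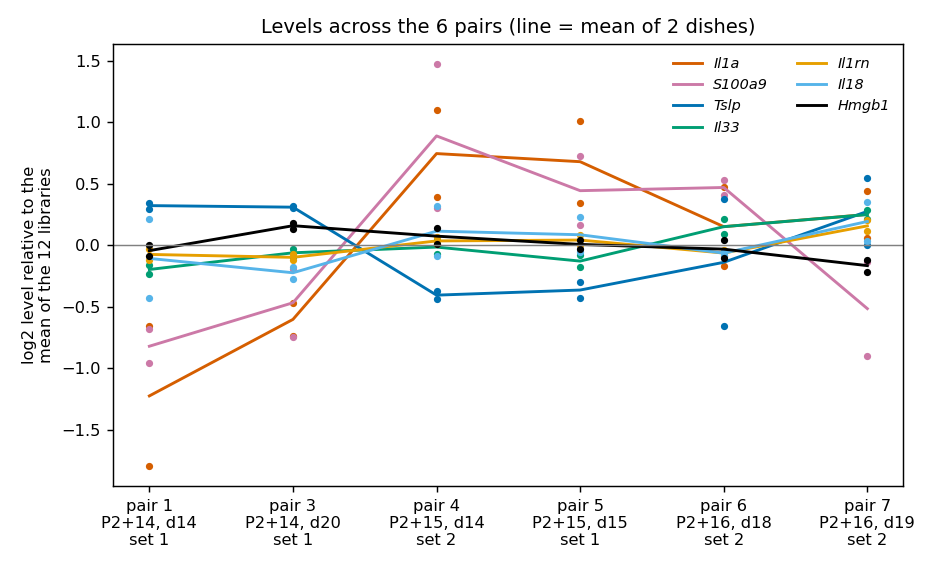
Log2 level (normalized count + 1) of the 7 tested genes relative to the mean of the 12 libraries, by pair in the order of passage, with points for the 2 dishes of a pair and a line through their mean. Il1a and S100a9 are low in pairs 1 and 3 and high in pairs 4 and 5, and Tslp is high in pairs 1 and 3 and low in pairs 4 and 5. Pairs 6 and 7, of 1 passage, are not alike in S100a9. In mean normalized counts, its pair 6 (22.7) is as high as pair 5 (22.7). Its pair 7 (11.4) is as low as pair 3 (11.6). Tslp is as high in pair 7 (106.5) as in pair 3 (107.2).

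Over the 12 libraries the pair of genes most alike was Il1a and S100a9 (Pearson's r 0.76 of log2 values), followed by Il18 and Il1rn (0.71), and the most opposed were Tslp and S100a9 (-0.61). These values share the same dishes and pairs and are a description over 12 points. Among all genes tested, those most alike to Il1a were Ing2 (0.98), Vnn1 (0.93) and Stbd1 (0.93). For Il18 they were Col4a3 (0.92), Onecut2 (0.88) and Col4a4 (0.85), of which Col4a3 and Col4a4 encode collagen IV chains. For Il33 they were Dancr, Nebl and Bag2, each at 0.92, and for Tslp Tmtc2 (0.94), Rhov (0.88) and Myl6 (0.88). Il1rn was most alike to Ccdc68 (0.91), 9930111J21Rik2 (0.87) and Rnf122 (0.86). For Hmgb1 they were Poc1a (0.93), H2afz (0.93), a histone gene, and Tubd1 (0.90), and for S100a9 Fancf (0.93), Ctdspl2 (0.93) and Kctd9 (0.92).

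Other ligands, those of the IL-36 branch and Il1f10 of the IL-1 family and Il25 of the IL-17 family, were low. Il36g, an epithelial IL-36 cytokine, had a mean of 40.3 normalized counts and a log2 fold change of 0.29, and Il36a had 16.9 and 0.07, and neither was called. Il36rn, the antagonist of that branch, was at 0 to 8.91 after ablation and 0 to 1.93 in the control, and Il25 and Il36b stayed under the minimum as well, with Il1f10 at 0 throughout. In all, 2 of 6 were tested.

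Of 15 receptor genes, 11 were tested, 5 of them higher and 6 lower, with a median log2 fold change of -0.02 and none called. The highest was Il1rl2, the IL-36 receptor, with a mean of 1993 normalized counts. All 6 ablated dishes exceeded their controls, where 9.8% of all genes moved the same way in all pairs. The log2 fold change was 0.21 (SE 0.078, limma adjusted p 0.598 with the library set and 0.0540 with the pair). Il1rap, the chain shared by the receptors for IL-1, IL-33 and IL-36, had the largest log2 fold change of the list at 0.32 (SE 0.105, higher in 5 of 6 pairs, adjusted p 0.537 and 0.0914 by limma). Tlr2, which senses microbial lipoproteins, had 0.25. The signalling receptor Il1r1 had a mean of 588 and a log2 fold change of -0.04, and the decoy Il1r2 was at 2.00 to 8.76 after ablation. Both IL-18 receptor chains were present, Il18r1 at a mean of 1367 and Il18rap at 258.

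Downstream, all 15 signalling genes were tested, 10 higher and 5 lower with a median of 0.01, and none was called. Tab2, an adaptor of the TAK1 kinase, was the highest at 4842 normalized counts, and Irak1, a kinase of the IL-1 receptor complex, had the largest log2 fold change, at -0.13 and lower in 6 of 6 pairs (limma adjusted p 0.628 and 0.160). Irak3 followed with 0.10 at a mean of 12.2 counts.

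Among 21 genes for processing and release of the cytokines, 15 were tested, 7 higher and 8 lower with a median of -0.01, and none was called. Nlrp10 had the largest value, with a log2 fold change of -0.57 (SE 0.245) and 5 of 6 pairs lower, from 611 ± 247 after ablation and 896 ± 359 in the control (SD, n = 6), at a limma adjusted p of 0.629 and, with the pair, 0.175. P2rx7, the ATP-gated channel, had -0.31. Pycard and Ninj1 were lower in 6 of 6 pairs, where 9.8% of all genes moved the same way in all pairs. Their log2 fold changes were -0.26 and -0.21. The limma adjusted p was 0.629 and 0.669 with the library set, and 0.0710 and 0.170 with the pair. Capn1, a calpain, was the highest at 3952 counts. Casp1, whose enzyme cuts the precursors of IL-1 beta and IL-18, had a mean of 413 and a log2 fold change of -0.10, and the inflammasome sensors differed in level. Aim2, a sensor of cytosolic DNA, had a mean of 489 counts and Nlrp6 of 56.2, with log2 fold changes of 0.00 and 0.28, while Nlrp3, Nlrp1a, Nlrp1b and Nlrc4 were at or near 0, with at most 1.02 counts in any library.

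Of 20 NF-kB and IL-1 target genes, 16 were tested, 11 higher and 5 lower with a median of 0.07. None was called with the library set in the model and 1 with the pair, beside 1.09% of all genes tested. It was Nfkbiz, which encodes an atypical nuclear IkB protein induced by IL-1 signalling. Nfkbiz was at 1785 ± 472 after ablation and 1277 ± 193 in the control (SD, n = 6). It was higher after ablation in all 6 pairs, where 9.8% of all genes moved the same way in all pairs. Its log2 fold change was 0.45 (SE 0.141, limma adjusted p 0.537 with the library set and 0.0135 with the pair). Tnf had 0.39 at a mean of 19.9 counts (adjusted p 0.856 and 0.551), and Tnfaip2 was the highest at 3274 counts with 0.06. Of the relatives of HMGB1 and of S100A8 and S100A9, 12 of 14 were tested, 8 higher and 4 lower with a median of 0.03, and none was called. S100a6 was the highest of them at 35965 normalized counts and a log2 fold change of 0.10, and S100a4 (0.18) and S100a1 (0.14) had the largest values.

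**Figure D5:**
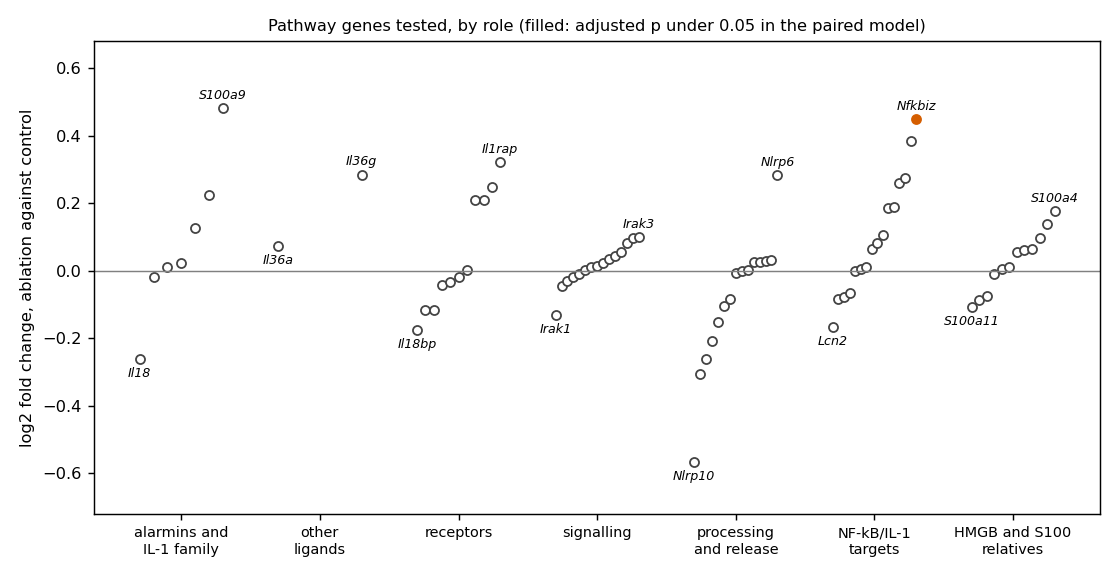
Log2 fold change after ablation for each tested gene of 7 lists, sorted within each list, with the lowest and the highest gene named. Nfkbiz, at 0.45, is the only point of these lists with an adjusted p under 0.05 in the model with the pair, and no point has one in the model with the library set.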

How the data were processed

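Poly(A) RNA of 12 libraries (6 ablation, 6 control) was sequenced, and the authors ran them through nf-core/rnaseq, using the GENCODE annotation of GRCm38.p6 and DESeq2. The signal values analysed, as deposited, are DESeq2-normalized counts (reads over 1 size factor per library). The deposited table also holds columns of the authors' own comparison (base mean, log2 fold change, its standard error, Wald statistic and p-values), which were not used. Groups followed the treatment label. The 9 genes, the lists, the count minimum and the models were chosen with earlier results of these data known.

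The 13792 genes that reached 10 normalized counts in 6 or more libraries entered the tests, on log2(normalized count + 1) with limma 3.58.1 in R 4.3.3 (trended, robust empirical Bayes), with condition and library set in the model, or the pair in place of the set. A fold change on this scale understates that of low genes. The pairs come from the shared passage, day and date in the titles, and deviations from the group means correlated with r from 0.205 to 0.618 within pairs. Benjamini-Hochberg adjustment covered all genes tested, with a threshold of 0.05. Read counts were recovered from the steps of the values in 9 libraries (23631212 to 29775699 reads; not for ablation 3, ablation 4 and control 4) and tested with edgeR 4.0.16 and DESeq2 1.42.0. Levels per kilobase used the gene length deposited with the normalized counts. All 9 entries had a gene identifier, and RefSeq promoters were matched by symbol. Models were tested on simulated data. Named genes were all 9, and in each pathway list (ligands, receptors, signalling, processing and release, targets, relatives) the highest in level, those called, those with the 2 largest absolute log2 fold changes, and receptors, processing enzymes and antagonists of the 9. In the processing and target lists, genes that moved the same way in all 6 pairs were named as well. Alternatives are given in the closing section.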

Additional observations from a re-analysis of the deposited data

Results flagged for a closer look

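Il33 was singled out because its 3 pairs in library set 1 were all lower after ablation and its 3 pairs in library set 2 were all higher. The log2 fold change of set 2 exceeded that of set 1 by 0.18 (SE 0.122), with a limma adjusted p of 0.999 with the library set in the model and 0.587 with the pair. The pairs of the 2 sets also differ in passage and culture day.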

How the results depend on the processing

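None of the 7 genes was called under any of 24 alternatives, except that S100a9 had no adjusted p in DESeq2. Il18 stayed lower (-0.34 to -0.19, lowest limma adjusted p 0.0787, with the pair in the model and without pair 3) and S100a9 higher (0.28 to 0.68) in all of them, while the sign changed in 9 for Il33, 2 for Hmgb1, and 1 each for Il1a, Il1rn and Tslp. Over all genes the number called rose from 0 to 150 with the replicate block (the pair in the model), to 3 without the minimum and to 9 with DESeq2 on recovered reads, and with the block it was 16 in library set 1 alone, 109 in set 2 alone, and, when 1 pair was left out, 176 (without pair 1), 90 (pair 3), 8 (pair 4), 77 (pair 5), 106 (pair 6) and 140 (pair 7). The block also raised genes differing between sets in response from 0 to 1 and pathway genes called from 0 to 1 (Nfkbiz). Genes differing between pairs fell from 4083 to 863 with plain empirical Bayes, and ranged from 2215 (without pair 3; 2373 without pair 1) to 4142 with 1 pair left out. For the genes described here that count fell from 3 to 0 with plain empirical Bayes and was 2 to 4 with 1 pair left out. The causes were not tested. Quantile and upper quartile scaling moved the median log2 fold change of all genes by under 0.1. Counts near 10 and below, as in S100a9 and S100a8, limit what a change in these genes could show.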
